A study of Danio rerio with 6 samples.

Results

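The long arm of zebrafish chromosome 4 was taken as every row of the deposited gene table on chromosome 4 with a start at position 28000000 or beyond. It holds 2399 of the 31624 rows, and their starts and ends lie between 28072421 and 76624966 in the coordinates of that table, for which no source used here names a genome build. RNA-seq counts came from whole embryos of zebrafish (Danio rerio) at 72 hours post fertilization, in 3 samples of rhpn2 mutants and 3 wild type samples, each lettered a to c. The labels describe the mutants as a knockout of rhpn2, the gene of rhophilin-2. The labels give no mutant allele, strain, clutch, parents or number of embryos per sample for either group, so the replicate spread behind each p-value may be technical in part.

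The long arm of this chromosome is known in zebrafish as a large, late replicating and mostly heterochromatic region. It is crowded with repeats and with tandem copies of a few gene families, among them zinc finger genes and genes of small nuclear and 5S ribosomal RNAs, and it has few single copy protein genes. C2H2 zinc finger proteins bind DNA through repeated finger domains, and families of them expand in clusters of neighbouring genes in many vertebrates. Most genes of the arm carry only names made from genomic clones, and no role is given for them here.

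Names in the table show this composition. Of the 2399 rows, 180 had a symbol starting with znf, which stands for zinc finger, and 2219 did not. The others included 666 rows named U6 and 319 named U1, both RNAs of the spliceosome, 55 microRNA rows and 28 ribosomal RNA rows, of which 14, 4, 0 and 1 had any count. A further 1029 rows had clone-based names, 68 had another name and a Gene Ontology term for binding of nucleic acid or zinc ions, and 54 had other gene names. Because 1236 of the 2399 rows share their symbol with another row, reads of such near copies may have been split or moved between rows by the counting. Of the 324 rows tested below, 34 share their symbol with another row.

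Expression of the arm was low. At least 1 count was present in 1065 rows, 573 rows had 20 or more counts over all 6 samples, and 324 rows passed the low count filter and were tested, 58 of them znf genes and 266 other genes. The arm took 1466 ± 7.36 CPM (counts scaled to library size) in mutants and 1396 ± 12.8 CPM in wild type (SD, n = 3 each), after scaling of the libraries by trimmed means (TMM). The 180 znf rows together took 139 ± 6.09 CPM in mutants and 122 ± 2.78 CPM in wild type, and the other rows took 1326 ± 12.9 CPM in mutants and 1274 ± 12.5 CPM in wild type (SD, n = 3 each). All 3 mutant sums of the znf rows, 139, 146 and 133 CPM, lay above all 3 wild type sums, 121, 119 and 124 CPM. The sums of the other rows were apart as well (1316 to 1341 CPM in mutants, against 1260 to 1282 CPM in wild type). So were those of znf genes outside the arm (3841 to 4027 CPM in mutants, against 3149 to 3498 CPM in wild type).

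Libraries held 14918069 to 17056923 counts. The targeted gene rhpn2, on chromosome 7, had 195, 194 and 188 counts in mutants a, b and c, against 685, 755 and 743 counts in wild type a, b and c. It fell by 2.12 on the log2 scale (SE 0.10, edgeR adjusted p = 5.04e-08). On the tested genes of the arm, the first principal component held 72.9% of the variance and separated mutants from wild type, while 10.6% fell to a second component on which wild type a was distant from the other samples. Over all genes the shares were 68.1% and 12.7%, with the same separation and wild type a again distant. Of the tested genes of the arm, 121 passed the low count filter through only 1 group, so their separation is in part built in. All 6 markers of whole embryo tissues were detected in every sample, and 4 of them differed between the groups past the threshold. Neuronal elavl3 had 92.7 ± 10.5 FPKM in mutants and 48.5 ± 11.9 FPKM in wild type, and hepatic tfa had 463 ± 29.0 FPKM in mutants and 793 ± 47.1 FPKM in wild type (SD, n = 3 each). Muscle mylpfa and lens cryaa were lower in mutants by smaller amounts (log2 changes -0.42 and -0.27), while epidermal krt4 (log2 change -0.29) and endothelial cdh5 (log2 change -0.04) did not pass. Fewer cells of a type and less RNA per cell cannot be told apart in whole embryos, and the part of tissue make-up in the results below was not tested.

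Genes of the arm switched in both directions between mutant and wild type embryos, and often by large factors. Of the 324 tested genes, 74 were higher in mutants (22.8%) and 35 were lower (10.8%) by the quasi-likelihood test of edgeR with Benjamini-Hochberg adjustment over 20032 genes and a threshold of 0.05. Over all genes tested, 16.5% were higher and 16.7% were lower. The share called in either direction, 33.6%, therefore lay near the 33.2% of all genes. The shares of large changes were further from that background. Changes that passed and reached 2-fold were found in 92 genes (28.4%), against 7.94% of all genes tested, and changes of at least 4-fold in 38 genes (11.7%), against 1.5%. Of these 38 genes, 23 were higher and 15 were lower in mutants. The median log2 change was 0.25 over the tested genes of the arm and 0.01 over all genes tested.

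**Figure D1:**
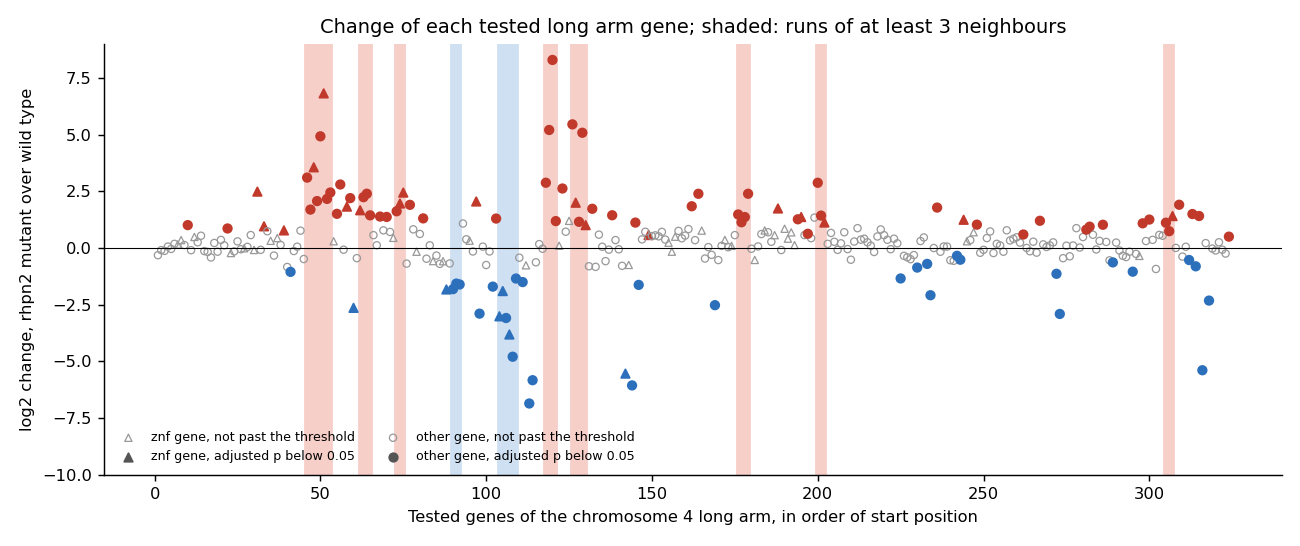
Fitted log2 change (mutant over wild type, vertical axis) of the 324 tested genes of the long arm in their order along it (horizontal axis), with triangles for znf genes, circles for other genes, filled symbols for genes past the threshold, and shading for 10 runs of at least 3 neighbours called in the same direction. Of the called genes, 74 lie above 0 and 35 below, 43 of them inside the shaded runs, and values beyond a size of 4 belong to genes with few or no counts in 1 group, whose fitted size depends on the prior count.

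The low count filter shaped who could be counted. It was passed by 121 of the 324 genes through only 1 group, 90 with at least 10 counts in all 3 mutant samples and not in all 3 wild type samples, and 31 the other way round. Such entry favours genes that differ between the groups, so the shares above describe tested genes and not the arm as a whole. Among the 187 genes with at least 10 counts in all 6 samples, 33 were called (17.6%), 19 higher and 14 lower in mutants, against 32.9% of the 18644 genes of the whole table that met the same condition. Of these 187 genes, 0% were called with a change of at least 4-fold. The other chromosomes and the short arm had 0% (chromosomes 23 and 24) to 1.28% (chromosome 22) under that condition. That condition in turn favours genes with like levels in both groups. Genes were also taken by a mean of at least 10 counts over the 6 samples, which treats both groups alike. Of 314 such genes of the arm, 66 were higher and 32 lower. The called share, 31.2%, lay within the 29.5% (chromosome 24) to 39.4% (chromosome 1) of the other chromosomes and the short arm. Called changes of at least 4-fold made up 9.87%, against 0.173% (chromosome 24) to 2.91% (chromosome 9) there. The excess of rises over falls was smaller with no filter, where 94 genes were higher and 70 lower, than with the stricter filter of at least 1 CPM in 3 samples, where 56 were higher and 24 lower. It also differed between tools, which change the scaling or the genes tested as well. DESeq2 gave 69 higher and 51 lower, and limma on log2(FPKM + 1), which uses library totals, gave 58 higher and 13 lower. Over all genes, 64.7% of the limma calls were higher in mutants, so its balance on the arm is in part a shift of the whole table. That share was 48.8% with DESeq2, 49.5% with no filter and 49.7% with the stricter filter. Reads shared by overlapping rows are a further limit, since 156 of the 324 tested genes overlap another row, the library kit is not named as directional and a strand setting of the counting is not given. Without those genes, 38 were higher and 14 were lower.

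Low abundance raises the share of large changes, so the arm was set beside the rest of the table within bins of mean CPM, in the fit with no low count filter, where 2.09% of all 26356 genes were called with at least a 4-fold change. From 0.5 to 1 CPM, 22 of 130 long arm genes (16.9%) were called with a change of at least 4-fold, against 6.91% of 1128 other genes and 7.95% of all genes of the bin. From 1 to 2 CPM the values were 10 of 109 genes (9.17%) on the arm and 3.83% elsewhere, with 4.19% over both. The lowest bin, 0.2 to 0.5 CPM, had 14.6% on the arm and 9.94% elsewhere, with 10.6% over both. At 2 to 5 CPM, 4 of 84 long arm genes (4.76%) changed this much, against 2.78% elsewhere and 2.83% over both, and at 5 CPM and over 2 of 46 did (4.35%), against 0.427% elsewhere and 0.439% over both. The share was higher on the arm in all 5 bins, although the upper bins rest on few genes.

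**Figure D2:**
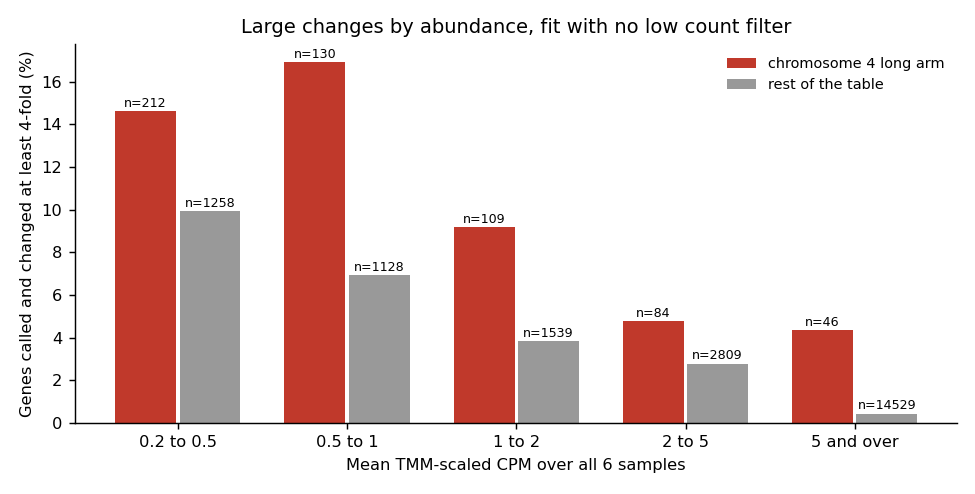
Share of genes called with a change of at least 4-fold (vertical axis, %) in 5 bins of mean TMM-scaled CPM (horizontal axis), for the long arm and for the rest of the table, with the number of genes above each bar. The long arm bar is the taller one in every bin, from 14.6% against 9.94% in the lowest bin to 4.35% against 0.427% in the highest.

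Some rows had counts in 1 group only. Of the rows with 20 or more counts in all, 7 of 573 on the arm (1.22%) were at 0 in all 3 samples of a group, against 21 of 21212 elsewhere (0.099%). The arm has more rows of low counts, and the gap was smaller within bins of total counts. From 20 to 49 counts, 6 of 213 rows of the arm (2.82%) and 12 of 1287 elsewhere (0.932%) were at 0 in a group, and from 50 to 199 counts 1 of 239 (0.418%) and 7 of 2734 (0.256%) were. ZNF74, a zinc finger gene at 31596294 to 31647210 on the plus strand, had 14, 20 and 11 counts in mutants, against 0, 0 and 0 in wild type. That is at least 13-fold higher in mutants, with a floor of 3 counts over a group, which covers counting error only. The gene with the Ensembl identifier ENSDARG00000102215 is clone-named and lies at 52508994 to 52574015 on the plus strand. It had 61, 37 and 29 counts in mutants, against 0, 0 and 0 in wild type. Its ratio, formed likewise, was 36.8 in favour of mutants. The opposite switch was seen in si:dkey-82i20.1, with 0, 0 and 0 counts in mutants, against 12, 16 and 12 in wild type. With 3 counts put in for mutants, the ratio was 15.3 in favour of wild type. edgeR called all 3 of these genes, with adjusted p of 0.000486 for ZNF74, 4.23e-05 for ENSDARG00000102215 and 0.000284 for si:dkey-82i20.1.

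The other 4 rows failed the low count filter and were not tested. The zinc finger gene znf1097 had 16, 6 and 6 counts in mutants, against 0, 0 and 0 in wild type. Its ratio, again with 3 counts in place of 0, was 8.11 in favour of mutants. znf1068 had 0, 0 and 0 counts in mutants, against 6, 8 and 9 in wild type, a ratio of 8.82 in favour of wild type. The clone-named row at 54217709 to 54338630 had a ratio of 7.24 in favour of mutants, and BX572103.7 had 8.06 in favour of wild type. Both overlap other rows, as do znf1068, si:dkey-82i20.1 and ENSDARG00000102215, whereas ZNF74 and znf1097 overlap none.

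Zinc finger genes of the arm moved both ways. Of the 58 tested znf genes, 18 were higher in mutants, 6 were lower and 34 did not pass, against 56 higher, 29 lower and 181 not passing among the 266 other genes. The called share was 41.4% of the znf genes and 32.0% of the others, against 33.2% of all genes tested. The median log2 change was 0.43 for the znf genes and 0.19 for the others. Both medians stayed the same when genes at 0 in a group were set to their ratio with 3 counts in place of 0. Such genes lie on the same side of the medians either way, so the medians could not have moved. Changes of at least 2-fold that passed were found in 21 znf genes (36.2%) and in 71 other genes (26.7%), and of at least 4-fold in 9 (15.5%) and 29 (10.9%). Among genes with at least 10 counts in all 6 samples, only 3 znf genes were higher and 0 were lower. The tested znf genes were also less abundant than the others (median of mean FPKM 0.585 against 0.7525). The part of the filter and of abundance in these shares was not tested. The balance of the znf genes depended on the filter, since the fit with no filter called 18 higher and 20 lower with a median of -0.14. DESeq2, which also changes the test and the scaling, called 14 higher and 15 lower. Of the 119 znf rows with 20 or more counts, 67 had the higher summed CPM in mutants and 52 the lower, which puts the balance closer to even than among the tested genes. Leaving out mutant c left 10 higher calls, and leaving out wild type a raised the lower calls to 10.

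The zinc finger genes elsewhere in the genome mostly rose where they passed. Of the 167 tested there, 63 were higher in mutants, 10 were lower, 15 changed at least 2-fold (8.98%) and 1 at least 4-fold (0.599%), and the median log2 change was 0.33. Their called share, 43.7%, was no lower than the 41.4% of the znf genes of the arm, against 33.2% of all genes tested. The 8.98% is near the share over all genes tested, and most of it came from chromosome 22. The tested znf genes elsewhere were more abundant than those of the arm (median of mean FPKM 3.54 against 0.585). Of the rows elsewhere 167 of 176 were tested, against 58 of 180 on the arm. The shares of large changes are therefore not set side by side at like abundance. The summed level of the znf genes elsewhere was 3915 ± 98.7 CPM in mutants and 3379 ± 199 CPM in wild type (SD, n = 3 each). Chromosome 22 held 43 of these genes, with 21 higher, 1 lower, a median of 0.72 and 10 changes of at least 2-fold (23.3%), while the 124 on other chromosomes had a median of 0.21 and 5 such changes (4.03%). The 512 tested genes of the chromosome 4 short arm had 80 rises, 83 falls (31.8% called), a median log2 change of -0.01 and 42 changes of at least 2-fold (8.20%).

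By the rule for naming, 7 znf genes of the arm rose, did not overlap between groups and reached a mean of 1 FPKM in mutants, the level set for naming. The highest of them, znf971 at 75673766 to 75732453 on the minus strand, had 159, 139 and 111 counts in mutants, against 45, 40 and 48 in wild type. Every mutant sample was above every wild type sample, and the log2 change was 1.41 (SE 0.18, edgeR adjusted p = 9.72e-05). znf971 overlaps other rows, among them the tested zgc:162948, which did not pass (log2 change 0.01). znf1112 had 55, 36 and 45 counts in mutants, against 12, 12 and 9 in wild type, a log2 change of 1.83 (SE 0.31, edgeR adjusted p = 0.000719) with groups that did not overlap. znf977 had 62, 54 and 48 counts in mutants, against 1, 5 and 20 in wild type, a log2 change of 2.45 (SE 0.49, edgeR adjusted p = 0.00229). Its wild type samples were spread over a wide range below the mutants, and a second row carries the same symbol.

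The remaining 4 were closer to the threshold. znf1114 rose by 0.78 and znf1015 by 1.25 on the log2 scale (edgeR adjusted p = 0.00798 and 0.0234). znf1128 rose by 0.96 and znf1130 by 0.57 (edgeR adjusted p = 0.0386 and 0.0489), and both lost the call in most alternatives. That was so for znf1128 in 9 of them, among them the omission of any 1 of the 6 samples, with log2 changes between 0.81 and 1.05, and for znf1130 in 8, with log2 changes between 0.44 and 0.62. The znf1015 rise lost the call in 4 alternatives, each with 1 sample left out, with adjusted p between 0.0506 and 0.0861. In every one of these genes the 3 mutant samples lay above the 3 wild type samples. znf1114 overlaps other rows, and znf1128 and znf1015 each share their symbol with another row.

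No znf gene that fell reached 1 FPKM in wild type, so the 6 falls are named after their values were seen. znf1122 had 6, 7 and 6 counts in mutants, against 28, 63 and 45 in wild type, and fell by 3.01 on the log2 scale (SE 0.39, edgeR adjusted p = 0.000107). znf1057 had 2, 1 and 0 counts in mutants, against 19, 10 and 12 in wild type, a ratio of 15.7 in favour of wild type with a 95% counting interval of 5.02 to 79.4. znf1149 had 1, 0 and 0 counts in mutants, against 27, 10 and 19 in wild type, a ratio of 64.5 in favour of wild type with an interval of 11.1 to 2591. Mutant counts were near 0 throughout for the last 2 genes, and the width of the intervals reflects that.

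The other 3 falls were in znf1065 (log2 change -2.64), znf1040 (log2 change -1.90) and znf1118 (log2 change -1.83), with edgeR adjusted p of 0.000849, 0.0131 and 0.00486. Each of the 6 overlaps another row, so the znf genes without an overlap gave 12 rises and 0 falls in edgeR. The most abundant znf genes other than znf971 did not pass. By mean FPKM these were znf1067 with 1.82 ± 0.18 in mutants and 1.52 ± 0.29 in wild type, znf1117 with 1.84 ± 0.15 in mutants and 1.55 ± 0.62 in wild type, znf1119 with 1.63 ± 0.12 in mutants and 1.52 ± 0.19 in wild type, and znf1041 with 1.61 ± 0.26 in mutants and 1.17 ± 0.22 in wild type (SD, n = 3 each). Their log2 changes were 0.16, 0.13, -0.01 and 0.35, and znf1067 and znf1041 overlap each other.

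Neighbouring tested genes of the arm were often called in the same direction, although how many depended on which rows counted as neighbours. A run was taken as 3 or more tested genes in a row, by start position, that all passed the threshold in the same direction with no other tested gene between them. The arm held 10 runs with 43 genes, 13.3% of its tested genes, of which 12 were znf genes and 31 others. Runs that were higher in mutants numbered 8 and held 34 genes, and 2 runs with 9 genes were lower. On the 24 other chromosomes and the short arm, the share of tested genes inside runs was between 1.06% (chromosome 2) and 9.76% (chromosome 22), with a median of 3.59% and 4.04% over all of them together. On the arm only 7 of the 43 run genes had at least 10 counts in all 6 samples, against 719 of 796 run genes elsewhere, so 36 of the 43 had fewer than 10 counts in at least 1 sample. With runs formed, after the data were seen, among genes with at least 10 counts in all 6 samples alone, the arm had 0 genes in runs, against 3.73% elsewhere. Among genes with a mean of at least 10 counts it had 35 of 314 (11.1%), against 0.982% (chromosome 10) to 10.1% (chromosome 22). With no low count filter, 25 of 1065 genes were in runs, and with at least 1 CPM in 3 samples 24 of 254 were. DESeq2 gave 26 of 732, and limma 14 or 13 of 220 at a pseudocount of 1 or 0.1. Without genes that overlap another row, the 43 genes became 16 of 168. They became 26 with runs broken at gaps over 200 kb between starts, and 9 with runs broken by any untested row that had a count. Other regions were not counted under these last alternatives, so whether the arm exceeded them there was not tested. In the main fit, the longest run of the arm had 8 genes, and a longer one with 25 genes was present on chromosome 9. The longest run of any other region had 7 genes (chromosomes 11, 22 and 23). The groups of all 43 genes were apart, as were those of 154 of the 324 tested genes of the arm (47.5%), against 47.8% of all genes tested.

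The run with the most genes on the arm, at 31202374 to 32214101, held 8 tested genes, all higher in mutants. It includes znf996, ZNF74 and 6 clone-named genes. Summed over the run, mutants a, b and c had 15, 14.2 and 13.4 CPM, against 1.86, 2.27 and 3.76 CPM in wild type a, b and c. Within it, si:rp71-5o12.3 had 85, 60 and 55 counts in mutants, against 7, 13 and 21 in wild type, a log2 change of 2.07 (SE 0.32, edgeR adjusted p = 0.000373). znf996 had 25, 23 and 11 counts in mutants, against 0, 1 and 3 in wild type, a log2 change of 3.56 (SE 0.64, edgeR adjusted p = 0.00111). All mutant samples of both genes were higher than all wild type samples.

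The 5 remaining genes of that run beside ZNF74 rose as well. BX548173.1 had 16, 21 and 10 counts in mutants, against 0, 1 and 0 in wild type, a ratio of 40.8 with a 95% counting interval of 6.98 to 1647. BX571711.1, si:dkey-43f9.4, si:dkey-72l17.6 and CR450785.1 had log2 changes of 3.11, 1.70, 2.17 and 2.45, with edgeR adjusted p between 0.000953 and 0.00763. Overlaps were present in 3 pairs of neighbours inside the run, and si:dkey-43f9.4 spans a stretch of U1 rows. The tested genes on both flanks, BX649620.1 (log2 change -0.48) and znf1085 (log2 change 0.30), did not pass.

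The longest stretch by distance was a run of 6 genes lower in mutants, at 45818007 to 48138012, whose first and last starts lie 2192 kb apart. No tested gene lies in the 1633 kb between znf1040 and si:dkey-159n16.2, 75 other rows start within the stretch, and breaks at gaps over 200 kb part it into 2 and 4 genes. It held the zinc finger genes znf1122, znf1040 and znf1057 and the clone-named genes si:dkey-159n16.2, ENSDARG00000095200 and si:dkey-156k2.3. Of these, znf1122 and znf1040 overlap each other, so their counts may not be independent. Summed over the run, mutants had 1.65, 3.08 and 2.69 CPM, against 14.4, 13.3 and 14 CPM in wild type. si:dkey-159n16.2 had 5, 9 and 4 counts in mutants, against 54, 37 and 44 in wild type, and fell by 3.09 on the log2 scale (SE 0.36, edgeR adjusted p = 5.64e-05). ENSDARG00000095200 had 0, 4 and 0 counts in mutants, against 28, 30 and 48 in wild type, and fell by 4.79 (SE 0.63, edgeR adjusted p = 0.000126), while si:dkey-156k2.3 fell by 1.34 (SE 0.29, edgeR adjusted p = 0.00369). Mutant levels lay below all wild type levels in each gene of the run.

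The falling stretch had a gene before it, and some rows inside it, that went the other way. Immediately before it lies crestin, a transcript of neural crest cells in zebrafish, at 45690506 to 45694942. It had 92, 93 and 63 counts in mutants, against 19, 38 and 30 in wild type, a log2 change of 1.30 (SE 0.25, edgeR adjusted p = 0.00193) with no overlap of the groups. Inside the stretch, an untested clone-named row at 47771778 to 47905012, which overlaps znf1057 and was singled out after its values were seen, had 11, 16 and 20 counts in mutants, against 2, 1 and 1 in wild type. Of 31 untested rows there with at least 5 counts, 25 were lower. The tested gene after the stretch, si:ch211-152l15.2, was lower too and did not pass (log2 change -0.43, edgeR adjusted p = 0.432).

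**Figure D3:**
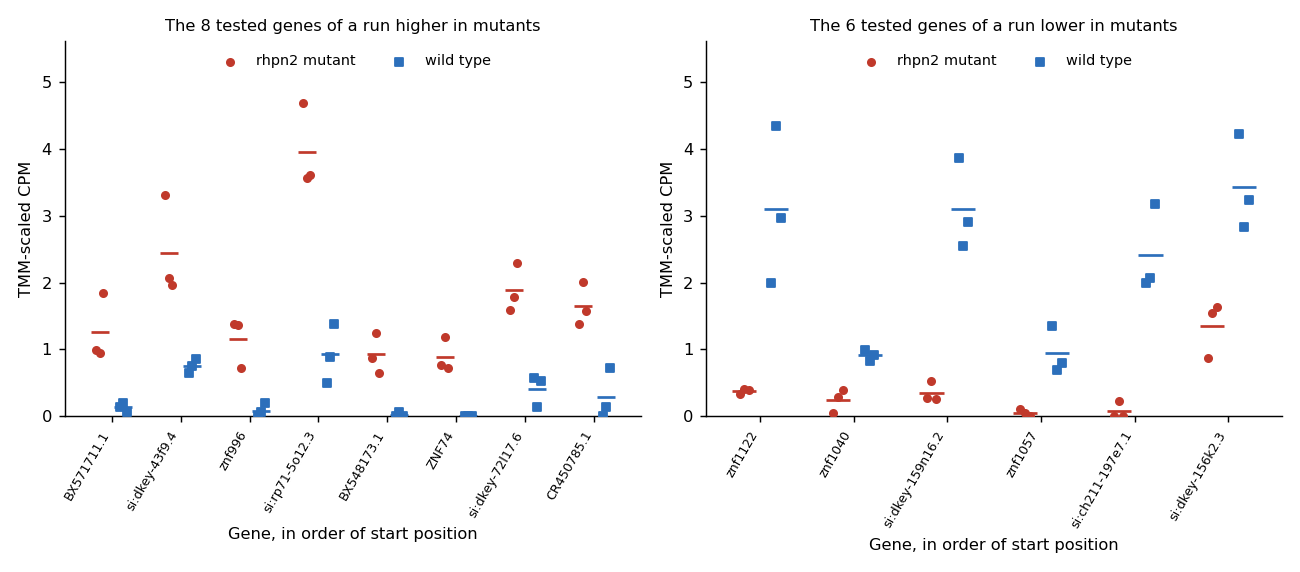
TMM-scaled CPM (vertical axis) of each gene (horizontal axis, in order along the arm) in the run of 8 genes higher in mutants (left panel) and the run of 6 genes lower in mutants (right panel), with a point per sample and a line at the mean of 3 samples; ENSDARG00000095200 is the fifth gene of the right panel. In every gene the 3 mutant and 3 wild type points are apart, as in si:rp71-5o12.3 with 85, 60 and 55 counts in mutants, against 7, 13 and 21 in wild type.

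A run of 4 genes at 52390031 to 53059511 had the widest relative rise among the runs. Its summed level was 7.54, 5.87 and 5.77 CPM in mutants, against 0.856, 1.03 and 0.989 CPM in wild type. Beside ENSDARG00000102215, which had no count in wild type, it held si:ch211-223g7.2 with 23, 16 and 18 counts in mutants, against 0, 1 and 0 in wild type, a ratio of 49.5 with a 95% counting interval of 8.54 to 1990. These 2 genes overlap, so their counts are not independent. The remaining genes of the run, si:ch211-223g7.6 and si:dkey-56m15.5, had log2 changes of 2.88 (SE 0.53, edgeR adjusted p = 0.00138) and 1.19 (SE 0.29, edgeR adjusted p = 0.00776).

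A run of 5 genes at 54449705 to 55088179 had 7.87, 7.17 and 7.02 CPM in mutants, against 2.07, 2.13 and 1.12 CPM in wild type. In si:dkey-41c6.3 the counts were 26, 26 and 16 in mutants, against 1, 0 and 0 in wild type, a ratio of 59.1 with a 95% counting interval of 10.3 to 2367. In si:dkey-269o24.1 they were 42, 28 and 22 in mutants, against 0, 1 and 1 in wild type, a ratio of 40.0 with an interval of 10.8 to 335. The zinc finger genes znf1047 and znf999 and the clone-named si:dkey-269o24.6 had log2 changes of 2.0, 1.01 and 1.16. si:dkey-269o24.6 overlaps both si:dkey-269o24.1 and znf999, so the counts of these genes may not be independent. The symbol znf1047 is carried by 3 rows. The last gene, znf999, lost its call in 8 of the alternatives tried, with adjusted p between 0.0502 and 0.127. The middle gene si:dkey-269o24.6, without which the run breaks up, lost it in 5, with adjusted p between 0.0525 and 0.109.

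The other 6 runs held 3 or 4 genes each. In the run at 33503446 to 34020403, si:dkey-84h14.2 had 164, 145 and 123 counts in mutants, against 6, 43 and 22 in wild type, a log2 change of 2.40 (SE 0.36, edgeR adjusted p = 0.000357). Wild type samples of this gene differed widely among themselves, but all stayed below the mutants. The run at 66451358 to 66940099 had 14, 14.5 and 13.3 CPM in mutants, against 4.43, 4.89 and 5.21 CPM in wild type. The second falling run, at 42228513 to 43461082, had 2.37, 2.84 and 1.44 CPM in mutants, against 5.0, 9.37 and 6.60 CPM in wild type. The shortest, at 75652595 to 75732453 near the end of the arm, ends with znf971 and had 15.5, 13.2 and 13.8 CPM in mutants, against 6.78, 6.06 and 6.60 CPM in wild type. In all 10 runs the summed levels of the groups were apart, which follows from the groups being apart, in the same direction, in each of their genes.

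**Figure D4:**
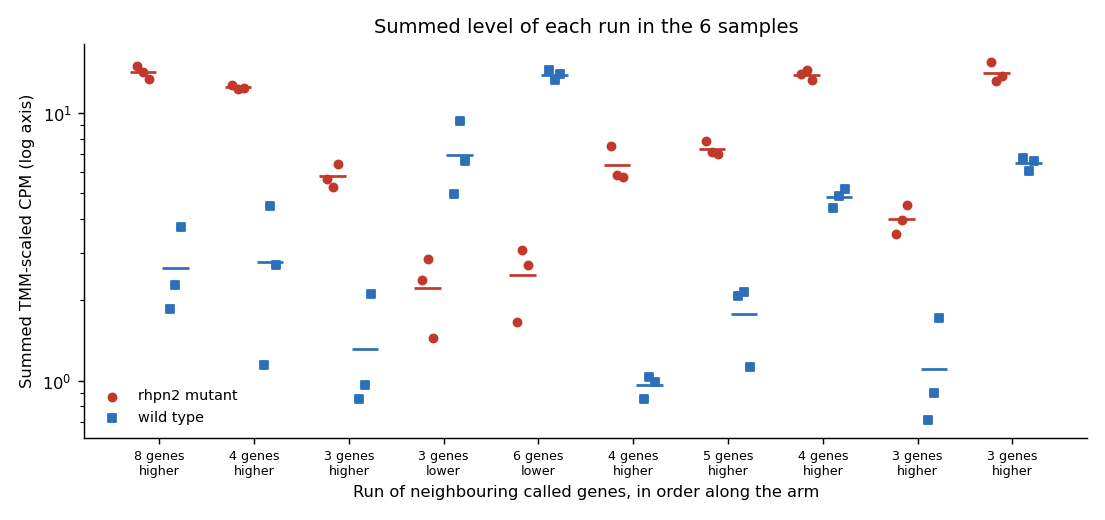
Summed TMM-scaled CPM (vertical axis, log scale) of the called genes of each of the 10 runs (horizontal axis, in order along the arm) in 3 mutant and 3 wild type samples, with a line at the mean. The widest gaps are in the 4-gene run at 52390031 to 53059511 (5.77 to 7.54 CPM in mutants, against 0.856 to 1.03 CPM in wild type) and the 6-gene falling run (1.65 to 3.08 CPM in mutants, against 13.3 to 14.4 CPM in wild type). The genes were selected by their calls, so the separation of the sums is no separate result.

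Rows too low to be tested give a view of these stretches that the run rule did not use, although they can share reads with overlapping run genes. Inside the 10 runs, 102 untested rows had at least 5 counts, and 82 of them moved to the side of their run. The side was taken after scaling to the libraries, so a row with equal raw counts in both groups scored as lower in mutants. The share of such rows on each side over the whole arm was not taken, so the 82 rows have no background of their own. In the 8-gene run all 5 such rows were higher in mutants, in the 6-gene falling run 25 of 31 were lower, and in the other falling run 20 of 23 were lower. The run at 37536676 to 38608795 was the exception, with only 5 of 14 rows on its side and summed untested counts at 0.944 of the wild type level in mutants. Over the whole arm, under another rule with a higher minimum count, the tie was looser. Among 146 untested rows with at least 10 counts, the log2 ratio followed that of the nearest tested gene within 200 kb with a Pearson r of 0.27 and the same sign in 54.8%, against an r of 0.12 and 52.5% of 1533 rows elsewhere.

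The likeness of neighbours was also described without a threshold. Over the 323 pairs of adjacent tested genes on the arm, the log2 changes had a Pearson r of 0.43 and a Spearman rho of 0.37, against r between -0.002 (chromosome 24) and 0.25 (chromosome 22) in the other 25 regions, with a median of 0.09. Genes 2, 3 and 4 places apart had an r of 0.40, 0.27 and 0.21 on the arm, and at 10 places it was -0.02. Pairs share libraries and, where they overlap, may share reads. Of the 324 tested genes, 121 passed the low count filter through only 1 group, which also shapes these values. Leaving out overlapping pairs gave 0.41 and leaving out pairs with starts under 50 kb apart gave 0.46. With no low count filter r was 0.32 and with DESeq2 0.36, while the stricter filter of at least 1 CPM in 3 samples gave 0.26, the lowest of all alternatives. Values of the other regions are given for the main fit only, where chromosome 22 had 0.25.

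**Figure D5:**
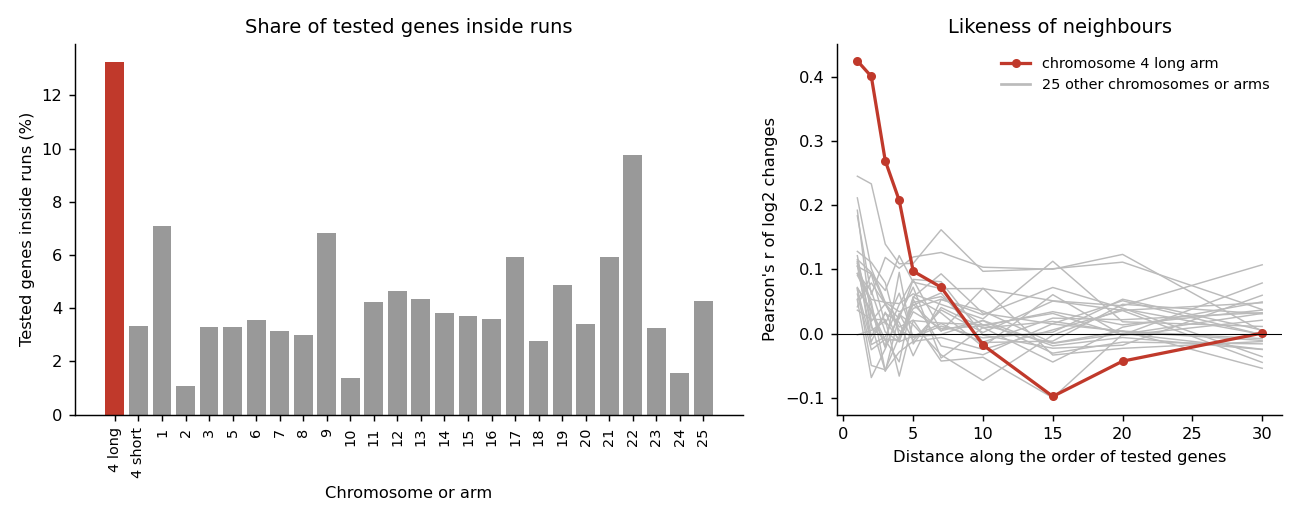
Left, share of tested genes that lie inside runs (vertical axis, %) for the long arm, the short arm and each other chromosome (horizontal axis). Right, Pearson r of the log2 changes of tested genes (vertical axis) by their distance in places along the order of tested genes (horizontal axis), with the long arm in red. The long arm has 13.3% in runs and chromosome 22 has 9.76%, and the long arm curve starts at 0.43 and is at -0.02 by 10 places.

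The direction of change of tested genes varied along the arm. Of the 324 tested genes, 121 passed the low count filter through only 1 group. Called shares and medians of the segments are therefore in part built in. Cut into segments of 7 Mb, the first, from 28 to 35 Mb, had 23 higher and 2 lower among 70 tested genes (35.7% called). The third, from 42 to 49 Mb, had 2 higher and 12 lower among 22 (63.6% called), with a median log2 change of -1.42. These 22 were the tested genes among 143 rows of that segment with a count. The falls of the third segment include the 9 genes of the 2 falling runs. In the next segment, from 49 to 56 Mb, 11 of 26 genes were higher and 2 lower (50% called), with a median of 0.66. The last segment, from 70 to 77 Mb, held 121 tested genes, 17 higher and 14 lower (25.6% called), with a median of 0.12. The segments between had 5 higher and 1 lower of 19 (35 to 42 Mb), 5 higher and 3 lower of 28 (56 to 63 Mb) and 11 higher and 1 lower of 38 (63 to 70 Mb). Their called shares, 31.6%, 28.6% and 31.6%, lay near or below that of all genes tested.

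The genes on both sides of the boundary did not pass. The last tested gene before position 28000000, cerk, a ceramide kinase gene, had 201, 213 and 186 counts in mutants, against 162, 216 and 184 in wild type, a log2 change of -0.11 (edgeR adjusted p = 0.594). The first one after it, gramd4a, had 70, 62 and 45 counts in mutants, against 44, 79 and 68 in wild type, a log2 change of -0.32 (edgeR adjusted p = 0.32). The groups overlap in both genes.

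The 2 largest falls among genes with at least 1 FPKM in wild type lay outside the runs. si:dkey-238k10.2, at 76377194 to 76528321 on the plus strand, had 4, 2 and 9 counts in mutants, against 222, 170 and 168 in wild type. Its FPKM was 0.083 ± 0.068 in mutants and 3.40 ± 0.54 in wild type (SD, n = 3 each), and it fell by 5.39 on the log2 scale (SE 0.34, edgeR adjusted p = 5.4e-07). si:dkey-105i14.1, at 57146255 to 57184507 on the plus strand, had 1, 1 and 2 counts in mutants, against 104, 65 and 85 in wild type, and fell by 6.06 (SE 0.42, edgeR adjusted p = 1.46e-06). In both, every mutant sample had less than every wild type sample by a wide margin, and both span other rows, among them ttll1 and znf1084.

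Of the other falls in the naming rule, CPNE8 (1 of many), a gene of the calcium-dependent copine family, had 139, 111 and 96 counts in mutants, against 168, 255 and 237 in wild type, a log2 change of -1.14 (SE 0.17, edgeR adjusted p = 0.000264). CABZ01077402.1, si:ch211-245n8.4, si:dkey-240n22.2 and CU207245.2 had log2 changes of -1.34, -1.50, -1.04 and -1.05, with edgeR adjusted p between 0.00326 and 0.0305. CU207245.2 lost its call in 5 alternatives (adjusted p between 0.0673 and 0.129), and si:dkey-240n22.2 lost it without wild type b (adjusted p = 0.0529). si:ch211-226o13.1, in the second falling run, had a log2 change of -1.57 (edgeR adjusted p = 0.00944). It lost the call without wild type b (edgeR adjusted p = 0.0515), the sample with its highest count. With limma at a pseudocount of 1 or 0.1 the call was lost as well (limma adjusted p = 0.0553 and 0.069). Without this middle gene that run of 3 breaks up.

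Among the rises, a row named si:dkey-16p6.1 had 97, 84 and 86 counts in mutants, against 5, 19 and 9 in wild type, a log2 change of 2.80 (SE 0.33, edgeR adjusted p = 5.52e-05). The groups were far apart, but 22 rows of the table carry that symbol, so its counts are uncertain. BX324003.1, BX324179.3, si:ch211-145h19.5 and CU467646.7 had log2 changes of 1.51, 1.39, 1.27 and 1.26, with edgeR adjusted p of 0.00316, 0.0145, 0.0175 and 0.0058. Leaving out 1 sample ended the call of BX324179.3 in 3 of 6 cases and that of si:ch211-145h19.5 in 2. In all of these the mutant samples were above the wild type samples.

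Of the 32 tested genes of the arm with other gene names, 3 were higher, 3 were lower (18.8% called, against 33.2% of all genes tested) and 0 of those called reached 4-fold, with a median log2 change of -0.04. All 6 are named here, 4 of them after their values were seen. PHF21B, which encodes a PHD finger protein, had 327, 307 and 269 counts in mutants, against 88, 132 and 121 in wild type, a log2 change of 1.20 (SE 0.15, edgeR adjusted p = 7.34e-05), with all mutants above all wild type samples. gbp4, a gene of the guanylate binding proteins, had 23, 23 and 20 counts in mutants, against 9, 8 and 3 in wild type, a log2 change of 1.5 (SE 0.41, edgeR adjusted p = 0.0131). crestin was the third rise. Falls were found in CPNE8 (1 of many), in slco1d1, of the organic anion transporter family, and in ms4a17a.9, of a family of membrane-spanning proteins, with log2 changes of -0.53 and -0.63 for the last 2.

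The 36 tested genes with a term for binding of nucleic acid or zinc and no znf symbol had 7 rises and 4 falls (30.6%, near the share over all genes tested). trim24, a tripartite motif gene of transcriptional regulation, had 723, 613 and 551 counts in mutants, against 301, 376 and 406 in wild type, a log2 change of 0.60 (SE 0.11, edgeR adjusted p = 0.00128). The finTRIM gene ftr51 had 89, 64 and 85 counts in mutants, against 28, 24 and 50 in wild type, a log2 change of 1.03 (SE 0.27, edgeR adjusted p = 0.0112). Mutant samples were higher throughout in both, which were also chosen after their values were seen.

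The most abundant genes of the arm sat near its end and moved little. rab3ip, which encodes an exchange factor for the small GTPase Rab8, had 27.8 ± 2.9 FPKM in mutants and 22.3 ± 2.0 FPKM in wild type (log2 change 0.21, edgeR adjusted p = 0.175). nup50, a nucleoporin gene, had 21.5 ± 0.52 FPKM in mutants and 17.8 ± 1.3 FPKM in wild type (log2 change 0.16, edgeR adjusted p = 0.229), and both passed under library totals, with adjusted p of 0.0422 and 0.038. RAB21, of a small GTPase, had 14.9 ± 0.39 FPKM in mutants and 13.8 ± 1.3 FPKM in wild type (log2 change 0.00, SD, n = 3 each). zgc:85975 had 55.1 ± 3.8 FPKM in mutants and 60.4 ± 2.3 FPKM in wild type (log2 change -0.24, edgeR adjusted p = 0.072). CABZ01073085.1 was the only one of these 5 to pass, with 106 ± 22 FPKM in mutants and 69.3 ± 2.7 FPKM in wild type (log2 change 0.50, SE 0.15, edgeR adjusted p = 0.0197), and it lost the call without mutant c, which was its highest sample (adjusted p = 0.10), and without wild type b or c (adjusted p = 0.0559 and 0.0635).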

How the data were processed

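Total RNA from TRIzol extracts went into NEBNext Ultra libraries, per the labels' protocols. The authors deposited 1 table with whole-number read counts and FPKM values per gene and sample, coordinates, symbols and Gene Ontology terms. FPKM recomputed from the deposited counts, exonic sizes and totals differed by at most 0.005. The submitters' processing notes name Salmon 1.9.0, STAR 2.7.10a, fastp 0.23.2 and bcl2fastq 2.20.0.422. Which of them made the counts, the build and the annotation were not given in any source used.

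All 31624 rows entered edgeR 4.0.16 in R 4.3.3: filterByExpr (minimum count 10, minimum total 15), TMM factors, a quasi-likelihood fit with group as the only term, and Benjamini-Hochberg adjustment over 20032 genes. SE is the log2 change divided by the square root of F. CPM values use the TMM-scaled libraries, in which 3 counts equal 0.165 to 0.214 CPM. Intervals of count ratios are exact (Clopper-Pearson) and cover counting error only. DESeq2 1.42.0 and limma 3.58.1 gave alternatives. Libraries of a group differed beyond counting noise (chi-square per gene 4.22 to 14.5), so none was merged as a repeat deposit of another, which does not show that they come from separate clutches.

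Genes are named as the 8 largest rises and falls each among called znf and other genes with non-overlapping groups and at least 1 FPKM on average in the higher group, the genes of the longest runs up to 25 genes, the 5 most abundant of each kind, the genes at the boundary and rhpn2. Members and lists were chosen with earlier results of these data known. The gene name table held 820 of the 2399 identifiers, and 88 of the 324 tested members matched RefSeq by symbol, 87 of them on chromosome 4 there. Some clone-named genes are given by Ensembl identifier or position. No sequences are shown, since no genome was used here.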

Additional observations from a re-analysis of the deposited data

How the results depend on the processing

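Beside 74 higher and 35 lower long arm genes, 18 higher and 6 lower znf genes and 43 genes in runs, median-of-ratios scaling gave identical counts, and library totals gave 89, 31, 19, 6 and 46 while moving the genome-wide median (log2) from 0.006 to 0.113 and the share of calls that were higher from 49.7% to 65.0%. With no low count filter the lower calls were 70, the lower znf calls 20 and the genes in runs 25. A minimum of 1 CPM in 3 samples left 10 higher and 2 lower znf genes and 24 in runs. DESeq2 gave 15 lower znf genes and 26 in runs. limma gave 13 lower genes with either pseudocount, 10 higher znf genes on log2(FPKM + 1) and 9 on log2(FPKM + 0.1), 0 lower znf genes with either, and 14 and 13 in runs. Without members that overlap another row, 38 were higher, 14 lower, 0 znf genes lower and 16 in runs. Runs of at least 4 genes held 31, of at least 5 held 19, runs broken at gaps over 200 kb held 26, and runs broken by untested rows with a count held 9, fewer by construction. Leaving out 1 sample gave 58 to 73 higher, 32 to 39 lower, 10 to 15 higher znf (10 without mutant c), 7 to 10 lower znf (10 without wild type a) and 30 to 42 in runs. A start at 30000000 gave 71, 35, 17, 6 and 43. With the replicate letter as a block the counts were 65, 33, 14, 6 and 39, but same-lettered samples did not deviate together (correlations -0.14, -0.05 and -0.19), so the letters do not pair them. Added after the data were seen, a count over genes with at least 10 counts in all 6 samples gave 19 higher, 14 lower, 3 higher and 0 lower znf genes and 0 in runs, and one over genes with a mean of at least 10 counts gave 66, 32, 13, 3 and 35. Over 60 named genes and their alternatives, 716 of 786 values kept their direction and side of the threshold, 55 lost and 3 gained significance, and 12 changed sign, all in 4 genes that never passed. These were cerk (0.0074 and 0.010 with limma at a pseudocount of 1 and 0.1, and -0.18 to 0.013 when leaving out 1 sample), znf1119 (0.094 under library totals, 0.061 and 0.096 with limma, and -0.081 to 0.071), znf1117 (-0.12 to 0.53) and RAB21 (-0.055 to 0.074). The causes of these shifts were not tested. Counts below about 20 per gene limit the precision of most long arm genes.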

Other observations

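Zinc finger genes outside the long arm included large rises of their own. znf408 on chromosome 7, the chromosome of rhpn2, had 141, 114 and 94 counts in mutants, against 18, 31 and 29 in wild type, a log2 change of 1.95 (SE 0.23, edgeR adjusted p = 4.98e-05). It starts at 38473666 and rhpn2 starts at 38078407. On chromosome 22, znf1179 had 65, 51 and 38 counts in mutants, against 150, 285 and 209 in wild type, and fell by 2.27 on the log2 scale (SE 0.23, edgeR adjusted p = 1.97e-05), while its neighbour znf1154 had a log2 change of 1.33 (edgeR adjusted p = 0.0136). All 3 genes had groups that did not overlap, and they were chosen after their values were seen.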
